A study of Mus musculus with 4 samples.

Results

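The 36 genes described here encode aminoacyl-tRNA synthetases, the enzymes that load each transfer RNA (tRNA) with its amino acid. They were chosen by symbol, as 20 genes for cytosolic forms and 16 genes for mitochondrial forms, whose symbols end in 2. All 36 were present, on 1 row each, among the 11603 genes of the table that the authors deposited. RNA was sequenced from muscle stem cells sorted from hindlimb muscle of male C57BL/6 mice aged 4 to 5 months, by flow cytometry for VCAM1 and against CD31, CD45 and Sca1. The comparison set 2 libraries of conditional Hairless (Hr) knockout cells beside 2 libraries of control cells. Hr encodes a nuclear corepressor that the series title places in heterochromatin maintenance. The labels name no Cre driver, no age at deletion and no further allele of the controls, and they do not say whether the libraries of a group came from separate mice, so each p-value reflects the spread among these libraries alone, which may be technical.

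Each cytosolic synthetase serves translation on cytoplasmic ribosomes, and a separate, nuclear-encoded set is imported into mitochondria to serve the ribosomes there. In mammals 8 of these cytosolic gene products are held together with scaffold proteins in the multisynthetase complex, and the others act alone or as small oligomers. When an amino acid runs short, uncharged tRNA activates the kinase GCN2 and translation of the transcription factor ATF4 increases, and many cytosolic synthetase genes are known ATF4 targets. Muscle stem cells at rest are known for low protein synthesis.

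Promoter windows from RefSeq (GRCm38.p6, 250 bases before to 50 after a gene's start) were searched for the core of the amino acid response element, the letters TGATGNAA or TTNCATCA on the other strand. Windows were found for 27 of the 36 genes, 13 cytosolic and 14 mitochondrial. The core was present in 5 of the 13 cytosolic windows (38.5%), in 0 of the 14 mitochondrial genes and in 4.51% of all 27025 genes with a window. These 5 are the synthetase promoters that held these letters among the 27 genes with a window. The 30 bases around 1 match in each are therefore shown, with the core in capitals, on the gene's own strand:
Aars: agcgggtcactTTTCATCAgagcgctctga
Gars: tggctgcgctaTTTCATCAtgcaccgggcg
Iars: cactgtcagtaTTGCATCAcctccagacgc
Tars: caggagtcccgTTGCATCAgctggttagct
Yars: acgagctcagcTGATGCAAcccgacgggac
These lie at chr8:111033840-111033869 (Aars, plus strand), chr6:55037960-55037989 (Gars, plus), chr13:49682126-49682155 (Iars, plus), chr15:11399655-11399684 (Tars, minus) and chr4:129189895-129189924 (Yars, plus). Counted from the gene's start, the core shown begins at 10 in Aars, at -30 in Gars, 8 in Iars, -15 in Tars and 4 in Yars. Aars holds another match, not shown, that begins at -112. A match is a description of these letters and not of binding.

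In the libraries as a whole, Hr had 9.28 and 8.94 RPKM (reads per kilobase of exon, scaled by a size for each library) in control and 7.15 and 7.90 RPKM in knockout. Its values are summed over all exons, so they cannot show a deletion of a part, and the direction of each difference rests on the labels. Reads on the listed genes numbered 21757211 to 34101213 per library. All 8 stem cell markers listed were measured, with sums of 2650 and 2144 RPKM in the controls, against 3556 and 3748 RPKM in the knockouts, most of it Sdc4. Pax7, the defining factor of these cells, had 8.23 and 12.9 RPKM against 9.03 and 13.1 RPKM. By the authors' deposited table Sdc4 was higher (adjusted p of 0.0028) and Itga7 lower (adjusted p of 0.00849) in knockout. Of the markers of other cells, the 7 measured myofibre genes summed to 178 and 713 RPKM in the controls, against 64.1 and 53.0 RPKM in the knockouts. All 7 myofibre genes had lower means in knockout, and control 2 was the highest library for each. The 5 measured fibro-adipogenic genes summed to 268 and 224 RPKM against 457 and 297 RPKM, and the 6 endothelial genes to 28.8 and 34.6 RPKM against 23.5 and 33.8 RPKM. The 5 measured blood cell genes summed to 16.5 and 16.2 RPKM against 12.0 and 18.4 RPKM, with Ptprc, which encodes CD45, at or below 0.0399 RPKM. Ly6a, which encodes the Sca1 that the sort selected against, had 47.9 and 49.5 RPKM against 77.4 and 80.7 RPKM. No measured marker was at 0 in any library, and the part of other cells in the values below was not tested. In bulk RNA, fewer cells of a type and less RNA per cell cannot be told apart.

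No synthetase gene passed the test between genotypes. The test was limma on log2(RPKM + 0.5) over all 11603 genes, with Benjamini-Hochberg adjustment. It called 0 of 36 members, with adjusted p from 0.205 to 0.996, where it called 0.00862% of all genes. With limma-voom on reads recovered from the RPKM values the count was also 0 of 36, where 0.0948% of all genes were called. At an unadjusted limma p under 0.05 there were 2 members (Eprs, higher, and Hars2, lower), where 18.0% of all genes lay under that value. By the authors' deposited table, none (0 of 36 members) had an adjusted p under 0.05, where 7.84% of all genes did. The lowest values there belonged to the same pair, 0.0831 for Eprs and 0.101 for Hars2.

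The intervals give the precision of these estimates on the log2(RPKM + 0.5) scale, which understates changes of low genes. The 95% limma interval of the log2 fold change lay within 2-fold in either direction for 36 of 36 members, as it did for 83.6% of all genes. It lay within 1.5-fold for 9 of 36. Pars2, with every library below the 0.5 RPKM added, had an interval from -0.24 to 0.39, which does not bound a change in its RNA. With a pseudocount of 0.1 in place of 0.5, the intervals of 33 of 36 lay within 2-fold. Fewer intervals lay within 2-fold by limma-voom (30), after scaling to the reads listed (30), and without control 1 (24). Members were divided in direction, 17 with a log2 fold change above 0 and 19 below, with a median of -0.02 and a range from -0.45 to 0.47. The median over all genes was -0.01. Scaled by the reads listed, where the median of all genes became -0.20, the division was 5 above 0 and 31 below, and 17 of 36 lay above the median of all genes. The knockout libraries lay wholly above the controls for 6 members and wholly below for 9, together 41.7% of members, where groups did not overlap for 51.2% of all genes (25.0% above and 26.2% below).

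**Figure D1:**
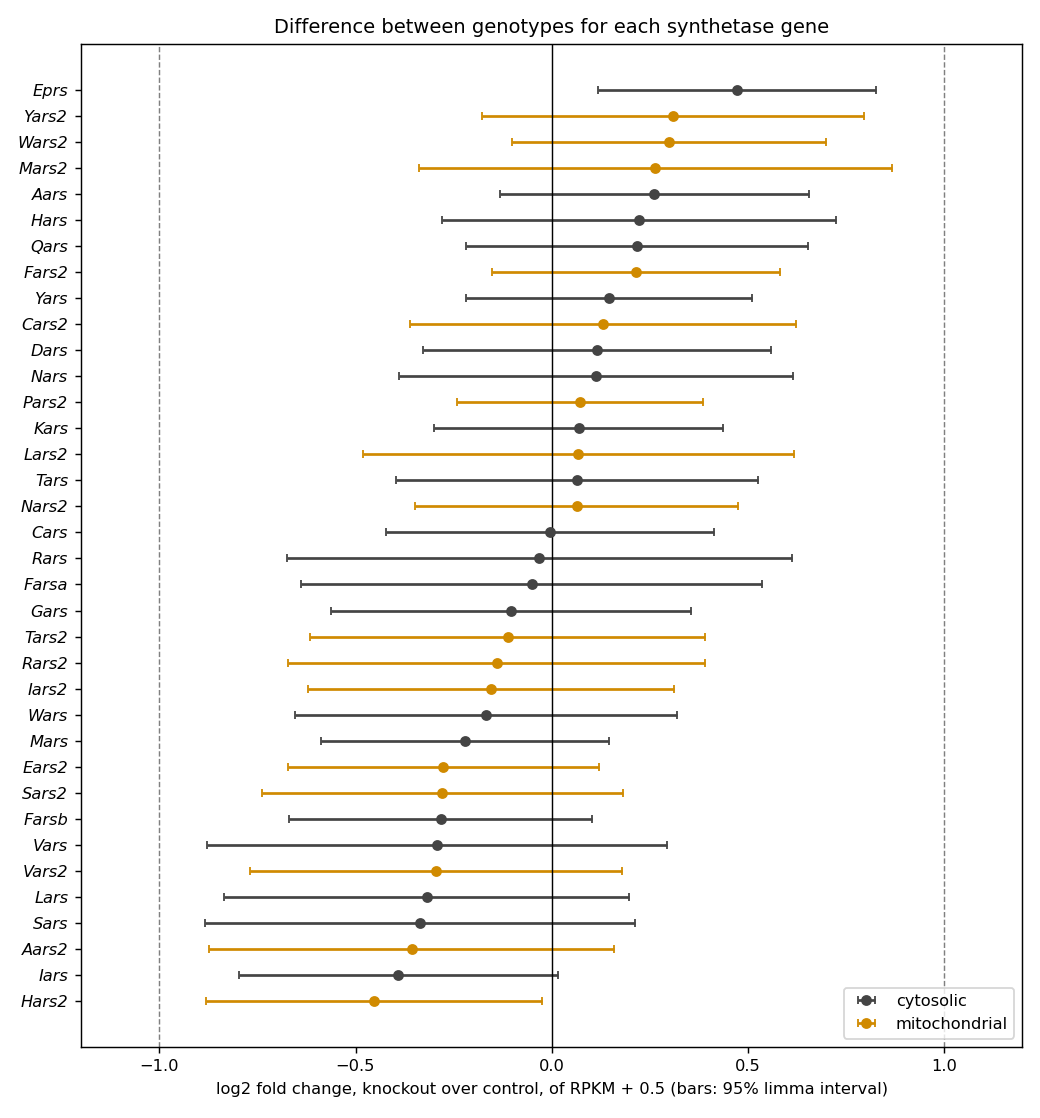
Log2 fold change of knockout over control for the 36 synthetase genes, on the log2(RPKM + 0.5) scale, with 95% limma intervals as bars. Points are cytosolic (dark) or mitochondrial (orange) forms, and dashed lines mark 2-fold. Values run from -0.45 for Hars2 to 0.47 for Eprs, and every bar stays inside the dashed lines.

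By RPKM, the cytosolic forms differed far more among themselves than between genotypes. Comparisons of level between genes rest on the summed exon length of each gene model, for example 1987 bases for Hars and 18102 for Eprs. Nars, which charges asparagine tRNA (chromosome 18, 64499665 to 64516557, minus strand, mm10), had the highest mean of the 20 at 274 RPKM, and Vars, the valine enzyme, had the lowest at 9.30 RPKM. The median of the 20 means was 36.7 RPKM. Nars had 259 and 263 RPKM in the controls, against 336 and 236 RPKM in the knockouts, so the knockout libraries fell on either side of both controls. Its means were 261 ± 3.03 and 286 ± 70.8 RPKM (SD, n = 2), so that the log2 fold change was 0.11 (standard error 0.20). Gars, the glycine enzyme whose single gene serves both cytosol and mitochondria, had 143 and 142 RPKM against 155 and 113 RPKM. Tars, the threonine enzyme, had 116 and 115 RPKM against 141 and 103 RPKM. For both genes, as for Nars, knockout 1 was the highest of the 4 libraries and knockout 2 the lowest.

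**Figure D2:**
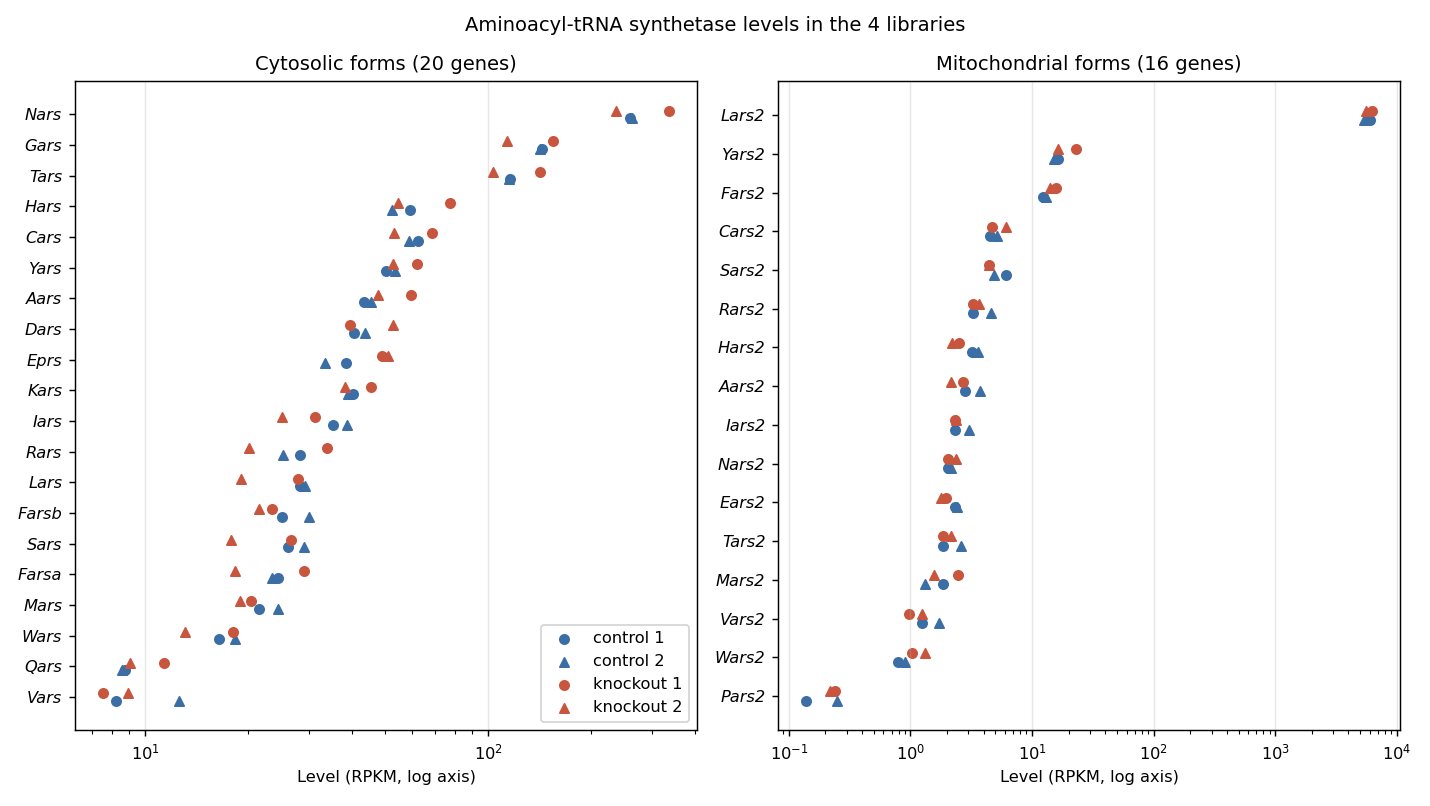
Level of each synthetase gene in the 4 libraries, in RPKM on a log axis, ordered by mean within the cytosolic (left) and mitochondrial (right) forms. Blue marks control and red knockout, with circles for replicate 1 and triangles for replicate 2. Cytosolic means span 9.30 to 274 RPKM, and Lars2 stands at 5813 RPKM while the other 15 mitochondrial forms lie at or below 17.7 RPKM.

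Of the 8 enzymes of the multisynthetase complex, 4 had log2 fold changes above 0 and 4 below, with a median of 0.02. Eprs is the fused enzyme for glutamate and proline (chromosome 1, 185363044 to 185428360, plus strand in mm10, Entrez gene 107508). It had 38.6 and 33.4 RPKM in the controls, against 49.0 and 51.0 RPKM in the knockouts. Both knockout libraries were above both controls and close to each other. Its means were 35.98 ± 3.69 and 49.99 ± 1.44 RPKM (SD, n = 2), 1.39-fold, and the log2 fold change was 0.47 (standard error 0.14, limma adjusted p of 0.205). Scaled by the reads listed, its log2 fold change was 0.24. Iars, the isoleucine enzyme, had values on the other side, with 35.3 and 38.7 RPKM against 31.3 and 25.1 RPKM, both knockout values below both controls. Its log2 fold change was -0.39 (standard error 0.16, limma adjusted p of 0.290), and -0.62 when scaled by the reads listed. No test compared Eprs with Iars.

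The other 6 complex enzymes lay between Iars and Eprs. Lars, the leucine enzyme, had 28.4 and 29.2 RPKM in the controls, against 27.8 and 19.0 RPKM in the knockouts. Mars, the methionine enzyme, had 21.4 and 24.5 RPKM against 20.3 and 18.9 RPKM. In both, the knockout values were below the controls, in Lars by a narrow margin for knockout 1. Qars, the glutamine enzyme, had 8.73 and 8.57 RPKM against 11.4 and 9.04 RPKM, above the controls in both knockout libraries. Rars, for arginine, had 28.2 and 25.3 RPKM against 33.8 and 20.1 RPKM, the widest knockout pair of the cytosolic forms. Kars, the lysine enzyme, which also serves both compartments from 1 gene, had 40.5 and 39.0 RPKM against 45.5 and 38.2 RPKM. Dars, for aspartate, had 40.6 and 43.7 RPKM against 39.6 and 52.7 RPKM. In these 3 genes the groups overlapped. Although the proteins share a particle, their transcripts ranged from 9.43 RPKM for Qars to 44.1 RPKM for Dars in the mean of the 4 libraries. This range too rests on the gene-model lengths.

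The 3 scaffold proteins of the complex had log2 fold changes above 0, and in each the groups overlapped. Eef1e1, also called AIMP3, had 61.9 and 46.1 RPKM in the controls, against 87.7 and 60.1 RPKM in the knockouts. Aimp2 had 16.1 and 11.2 RPKM against 24.8 and 12.9 RPKM, and Aimp1 had 5.83 and 5.71 RPKM against 5.74 and 6.51 RPKM. In Eef1e1 and Aimp2, replicate 1 exceeded replicate 2 in both genotypes.

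Among the 12 cytosolic enzymes outside the complex, groups overlapped in 10, where they did not overlap for 51.2% of all genes. Aars, the alanine enzyme, was the 1 gene whose knockout values were both above the controls, with 43.3 and 45.4 RPKM against 59.5 and 47.8 RPKM. Farsb, the beta subunit of the phenylalanine enzyme, was the 1 gene whose values were both below, with 25.1 and 29.97 RPKM against 23.5 and 21.5 RPKM. Its partner subunit Farsa had 24.4 and 23.4 RPKM against 29.1 and 18.2 RPKM. Farsa and Farsb form 1 enzyme in equal parts. Their RPKM ratio was 0.970 and 0.781 in control and 1.24 and 0.849 in knockout, near parity in every library. It rests on summed exon lengths of 4538 bases for Farsa and 2620 for Farsb, and it does not measure protein.

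In the remaining enzymes outside the complex the knockout values overlapped the control values. Hars, for histidine, had 59.1 and 52.3 RPKM in the controls, against 77.4 and 54.5 RPKM in the knockouts. Cars, for cysteine, had 62.4 and 58.9 RPKM against 68.7 and 53.2 RPKM, and Yars, for tyrosine, had 50.2 and 53.4 RPKM against 62.2 and 52.9 RPKM. All 3 were highest in knockout 1. Sars, the serine enzyme, had 26.1 and 29.1 RPKM against 26.7 and 17.7 RPKM. Wars, for tryptophan, had 16.4 and 18.2 RPKM against 18.0 and 13.1 RPKM. Vars had 8.24 and 12.5 RPKM against 7.54 and 8.92 RPKM. In Sars and Wars knockout 2 was the lowest library, while in Vars control 2 stood above the other 3.

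Knockout 1 and knockout 2 differed from each other in the cytosolic forms in 1 direction. Knockout 1 was higher than knockout 2 in 17 of 20, the exceptions being Dars, Vars and Eprs, where 47.6% of all genes were higher in knockout 1. The median log2 ratio of knockout 1 to knockout 2 was 0.34 for the cytosolic forms and -0.02 for all genes. It was largest for Rars (0.74), Farsa (0.66) and Sars (0.57). The controls were more alike, with control 1 higher in 9 of 20 and a median absolute log2 ratio of 0.10, against 0.39 between the knockout libraries. The summed level of the 20 cytosolic forms was 1075 and 1085 RPKM in the controls, against 1264 and 975 RPKM in the knockouts, so the control sums lay between the knockout sums. Without knockout 1 the cytosolic median log2 fold change was -0.18, with 5 of 20 above 0, and without knockout 2 it was 0.19, with 13 of 20 above 0. The summed fibro-adipogenic markers were also highest in knockout 1, at 457 RPKM, with Dpt at 323 RPKM there and at most 131 RPKM in the other libraries, while the other 4 of the 5 markers were lower in knockout 1 than in knockout 2. Their part in this difference was not tested.

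**Figure D3:**
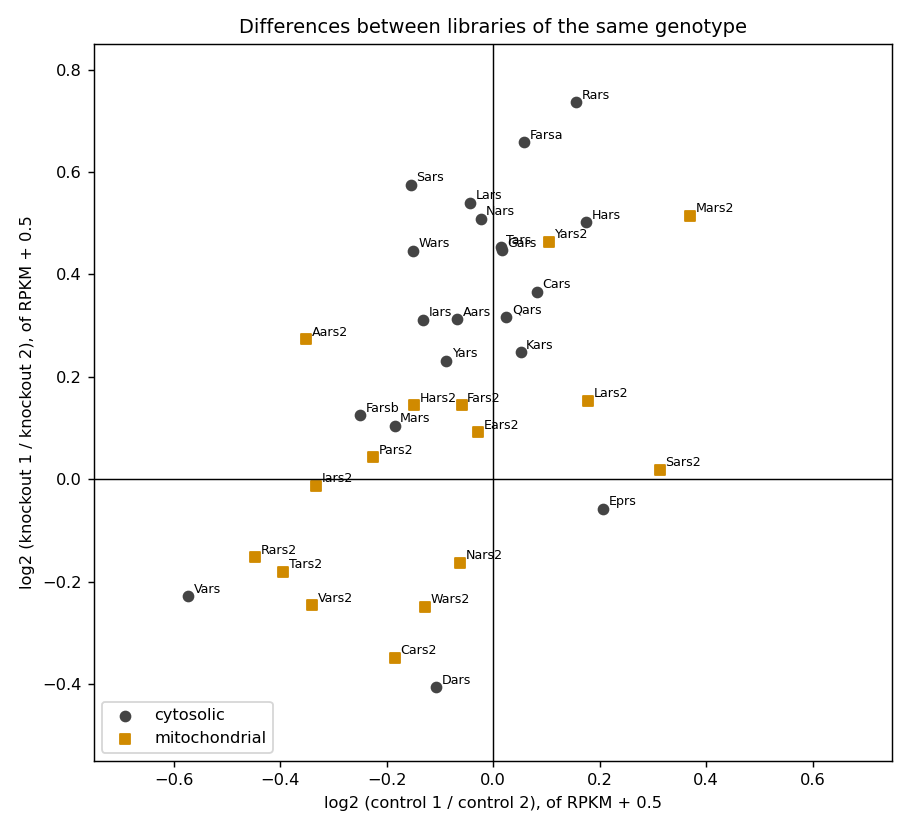
Log2 ratio of the 2 knockout libraries (vertical axis) against the log2 ratio of the 2 control libraries (horizontal axis) for each synthetase gene, on the log2(RPKM + 0.5) scale. Of the cytosolic forms (dark circles), 17 of 20 lie above the horizontal line, while the mitochondrial forms (orange squares) lie on both sides, 9 of 16 above it.

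The mitochondrial forms were low, apart from Lars2. Leaving it out, the other 15 had a median of 2.52 RPKM over the 4 libraries and a range from 0.210 to 17.7 RPKM. Of 16 pairings of a cytosolic gene with the mitochondrial gene for the same amino acid, with Eprs counted for both glutamate and proline and Farsa for phenylalanine, the cytosolic gene was higher in 15. Without the leucine pair the ratio had a median of 13.0 and ran from 1.73 for Farsa over Fars2 to 204 for Eprs over Pars2. Knockout 1 was higher than knockout 2 in 9 of the 16, and 8 of 16 had log2 fold changes above 0, with a median of -0.02.

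Lars2 is the mitochondrial leucine enzyme (chromosome 9, 123366940 to 123462664, plus strand in mm10, Entrez gene 102436). It had 6027 and 5327 RPKM in the controls, against 6265 and 5633 RPKM in the knockouts. Its mean of 5813 RPKM was the seventh highest of all genes listed (rank 7), and it took between 1.65% and 2.01% of the reads of a library. It stood 273 to 372 times above Yars2, the next mitochondrial form, depending on the library, while its cytosolic counterpart Lars had a mean of 26.1 RPKM. Values are summed over the gene model, so they cannot show which exons the reads fell on, and the level is uncertain as a measure of mature Lars2 messenger RNA. Between genotypes the groups overlapped, with a log2 fold change of 0.07 and a 95% limma interval from -0.48 to 0.62.

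Hars2, the mitochondrial histidine enzyme (chromosome 18, 36783008 to 36792562, plus strand, mm10), had the largest log2 fold change below 0 of the 36. It had 3.19 and 3.59 RPKM in the controls, against 2.49 and 2.21 RPKM in the knockouts, both below the controls. Its means were 3.39 ± 0.282 and 2.35 ± 0.201 RPKM (SD, n = 2), and the log2 fold change was -0.45 (standard error 0.17, limma adjusted p of 0.260). Scaled by the reads listed, the log2 fold change of Hars2 was -0.63. Hars and Hars2 start head to head on opposite strands, and 195 exonic bases of the gene models overlap, so unstranded reads there cannot be told apart. The ratio of Hars to Hars2 was 18.5 and 14.6 in control and 31.1 and 24.7 in knockout. This ratio lay higher in both knockout libraries, with 0.333 as the smallest p that an exact two-sided permutation test of 2 against 2 libraries can give.

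With Hars2, 5 of the 16 mitochondrial forms had both knockout values below both controls, where 26.2% of all genes did. The other 4 were Aars2, Sars2, Ears2 and Vars2. Aars2, for alanine, had 2.82 and 3.73 RPKM in the controls, against 2.72 and 2.16 RPKM in the knockouts. Sars2, for serine, had 6.16 and 4.87 RPKM against 4.46 and 4.40 RPKM. Ears2, for glutamate, had 2.34 and 2.40 RPKM against 1.95 and 1.80 RPKM, and Vars2, for valine, had 1.24 and 1.70 RPKM against 0.965 and 1.24 RPKM, where control 1 and knockout 2 all but met. The limma adjusted p values of these 4 ran from 0.415 to 0.473.

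Another 3 of the 16 mitochondrial forms had both knockout values above both controls, where 25.0% of all genes did. Yars2, for tyrosine, had 16.2 and 15.03 RPKM in the controls, against 22.95 and 16.5 RPKM in the knockouts. Fars2, for phenylalanine, had 12.4 and 13.0 RPKM against 15.6 and 14.1 RPKM, and Wars2, for tryptophan, had 0.791 and 0.911 RPKM against 1.02 and 1.31 RPKM. Their log2 fold changes were 0.31, 0.22 and 0.30, with limma adjusted p values of 0.454, 0.488 and 0.387.

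The last 7 mitochondrial forms, beside Lars2, overlapped between genotypes. Mars2, for methionine, had 1.84 and 1.31 RPKM in the controls, against 2.46 and 1.57 RPKM in the knockouts, so knockout 1 and control 1 were the higher library of their groups. Cars2, for cysteine, had 4.49 and 5.16 RPKM against 4.66 and 6.07 RPKM. Rars2, for arginine, had 3.25 and 4.62 RPKM against 3.27 and 3.69 RPKM. Iars2, for isoleucine, had 2.32 and 3.05 RPKM against 2.33 and 2.36 RPKM, with control 2 above the other 3. Tars2, for threonine, had 1.85 and 2.58 RPKM against 1.84 and 2.15 RPKM, and Nars2, for asparagine, had 2.03 and 2.14 RPKM against 2.05 and 2.36 RPKM. Pars2, for proline, was the lowest at 0.139 and 0.248 RPKM against 0.238 and 0.216 RPKM, which rested on 10 to 19 reads per library.

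Some gene models share exonic bases with neighbours, and strand use in counting is not given in the sources used here. Rab3gap2 overlaps 22.9% of the Iars2 exons and Naxd 20.5% of the Cars2 exons on the opposite strand, and Exosc6 overlaps 14.3% of the Aars exons on the same strand. Sgpp2 overlaps 9.47% of Farsb on the opposite strand. Smaller or similar opposite-strand overlaps touch other members, among them Hars (9.81%), Vars2 (8.52%), Nars2 (6.74%) and Fars2 (5.46%). These are shares of exon length and not of reads, so they do not bound the uncertainty in the levels of these genes.

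The genes with the ATF4 core in their window did not share a direction. Log2 fold changes were 0.26 for Aars, 0.15 for Yars, 0.06 for Tars, -0.10 for Gars and -0.39 for Iars. Scaled by the reads listed, they were 0.03, -0.09, -0.17, -0.34 and -0.62 in the same order. The genes of uncharged tRNA sensing and the ATF4 axis likewise went both ways. Of the 24 measured, 0 passed limma over all genes, and at an unadjusted p under 0.05 there were 5 higher and 2 lower, where 10.3% and 7.69% of all genes were. By the authors' deposited table, none (0) were higher and 2 lower at an adjusted p under 0.05, where 3.59% and 4.26% of all genes were. The median log2 fold change was 0.10.

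Atf4 itself had 812 and 729 RPKM in the controls, against 1076 and 1202 RPKM in the knockouts. Both knockout values were above both controls, with a log2 fold change of 0.56 and a limma adjusted p of 0.203. Cebpb, a factor that can pair with ATF4, had 1272 and 1409 RPKM against 2213 and 2971 RPKM, and Atf3, another stress-induced factor, had 322 and 324 RPKM against 405 and 657 RPKM. The other 2 with an unadjusted limma p under 0.05 in this direction were Ppp1r15a, the phosphatase subunit that restores translation (587 and 565 RPKM, 799 and 885 RPKM), and Atf5 (17.9 and 17.4 RPKM, 23.5 and 25.7 RPKM). In contrast, Asns, asparagine synthetase and a standard ATF4 target, had 13.5 and 15.4 RPKM against 7.17 and 7.501 RPKM, and its log2 fold change was -0.93 (standard error 0.16, limma adjusted p of 0.137). Phgdh, the first enzyme of serine synthesis, had 23.8 and 31.2 RPKM against 16.6 and 12.4 RPKM, a log2 fold change of -0.90. In the authors' deposited table the adjusted p was 8.41e-05 for Asns and 0.000643 for Phgdh.

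The Asns window carries the core as well, at -23 from its start (chr6:7693214-7693243, minus strand), shown beside the synthetase windows because its level differed most between genotypes among the synthetase and ATF4 axis genes found with the core:
Asns: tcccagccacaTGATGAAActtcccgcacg
Of 21 genes of the axis with a window, 5 held the core (23.8%): Asns, Atf3, Chac1, Nupr1 and Trib3. Chac1, which degrades glutathione, had 57.0 and 79.9 RPKM in the controls, against 68.7 and 98.0 RPKM in the knockouts, and Trib3, a feedback inhibitor of ATF4, had 20.6 and 28.0 RPKM against 18.9 and 23.1 RPKM. In both the groups overlapped. The kinase gene Eif2ak4, encoding GCN2, had 2.20 and 2.56 RPKM against 2.18 and 2.78 RPKM.

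**Figure D4:**
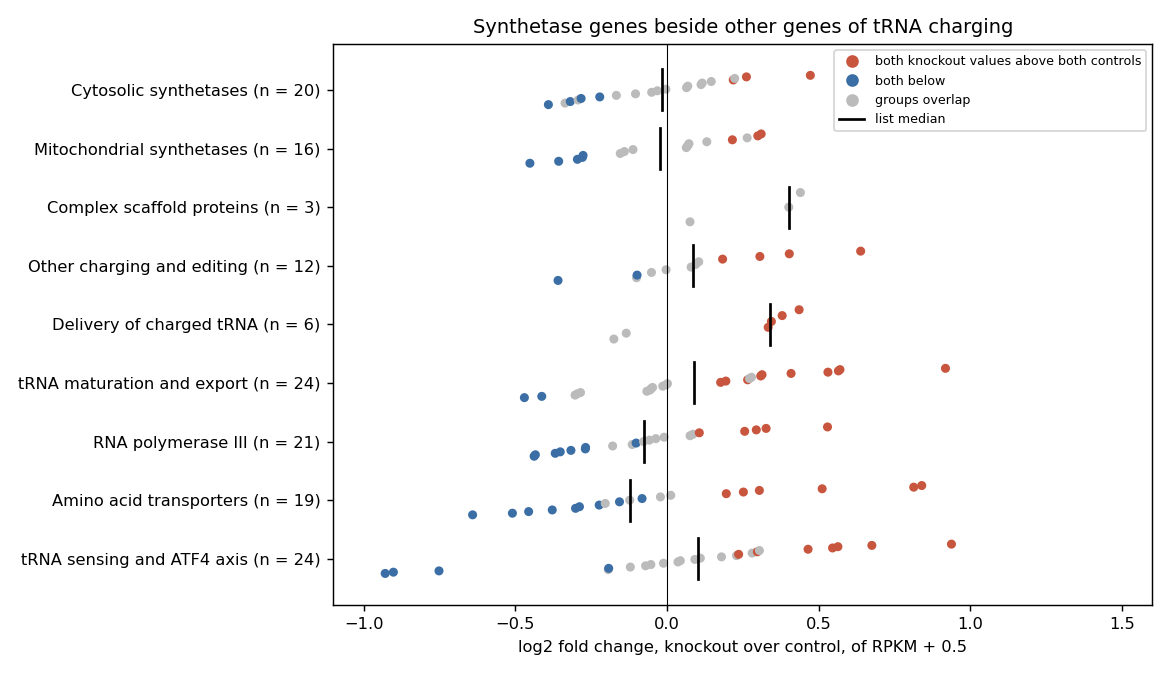
Log2 fold change of knockout over control for the 2 synthetase sets and 7 lists of other genes of tRNA charging, on the log2(RPKM + 0.5) scale. Each point is 1 gene, coloured where both knockout values lie above (red) or below (blue) both controls and grey where groups overlap, and black bars are medians. The synthetases stay between -0.45 and 0.47, while the axis of ATF4 runs from -0.93 for Asns to 0.94 for Cebpb.

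Of the 6 measured factors that deliver charged tRNA to the ribosome, 4 had both knockout values above both controls, where 25.0% of all genes did, and none passed a test. Eef1a1, the elongation factor that carries charged tRNA, had 2180 and 2024 RPKM in the controls, against 2715 and 2751 RPKM in the knockouts. Its exchange factor subunits Eef1b2 (84.1 and 74.2 RPKM, 100.01 and 100.8 RPKM), Eef1d (35.6 and 33.7 RPKM, 45.6 and 48.5 RPKM) and Eef1g (169 and 146 RPKM, 210 and 188 RPKM) were also above both controls in both knockout libraries. The mitochondrial counterpart Tufm had 28.6 and 31.7 RPKM against 32.0 and 22.1 RPKM. Of the 6 measured, 0 passed limma or the threshold of the authors' deposited table, and 2 (Eef1b2 and Eef1d) had an unadjusted limma p under 0.05, where 10.3% of all genes were higher under that value.

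Other genes of charging and editing gave no call. Of 12 measured, 0 passed limma, 0 had an unadjusted limma p under 0.05 and 0 passed in the authors' deposited table. Dtd1, a deacylase that removes D-amino acids from tRNA, had the largest log2 fold change, 0.64, with 9.18 and 12.8 RPKM against 13.5 and 21.8 RPKM. Gatc, a subunit of the mitochondrial transamidation complex that makes glutamine tRNA in place of a mitochondrial glutamine enzyme, had 9.17 and 12.9 RPKM against 10.7 and 11.01 RPKM.

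Genes of tRNA maturation and export had 0 of 24 calls by limma, and at an unadjusted p under 0.05 there were 4 higher and 1 lower, against 10.3% and 7.69% of all genes. Hsd17b10, a dehydrogenase that is also a subunit of mitochondrial RNase P, had 64.5 and 75.1 RPKM in the controls, against 119 and 147 RPKM in the knockouts, and its log2 fold change was 0.92. Clp1, an RNA kinase bound to the tRNA splicing endonuclease, had 14.1 and 13.5 RPKM against 19.5 and 21.9 RPKM. The RNase P subunits Pop4 (66.0 and 69.7 RPKM, 83.9 and 115 RPKM) and Pop7 (11.8 and 8.29 RPKM, 16.1 and 13.8 RPKM) were the other higher genes under that value. Xpo5, an exporter of structured RNA, had 4.88 and 5.44 RPKM against 3.81 and 3.36 RPKM. By the authors' deposited table, 2 of the 24 had an adjusted p under 0.05, Hsd17b10 at 0.00184 and Clp1 at 0.0350, both higher, where 3.59% of all genes were higher. Highest in level was Ssb, encoding the La protein that binds new RNA polymerase III transcripts, with 149 and 129 RPKM against 175 and 160 RPKM.

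RNA polymerase III, which transcribes the tRNA genes, had 21 measured subunits and factors, 7 with log2 fold changes above 0 and 14 below. Limma called 0 of them, and at an unadjusted p under 0.05 there were 1 higher and 2 lower, beside 10.3% and 7.69% of all genes. Gtf3c6, a subunit of TFIIIC, had 16.7 and 18.3 RPKM in the controls, against 25.02 and 25.8 RPKM in the knockouts. Another TFIIIC subunit, Gtf3c1, had 2.89 and 3.19 RPKM against 2.19 and 2.04 RPKM, while the second largest polymerase subunit, Polr3b, had 2.87 and 3.37 RPKM against 2.17 and 2.18 RPKM. Maf1, the repressor of the polymerase, had the highest level, 69.2 and 71.7 RPKM against 68.9 and 70.9 RPKM, with a log2 fold change of -0.01. The polymerase subunit Polr3d had the next highest level, 32.8 and 33.3 RPKM against 42.5 and 36.7 RPKM. None of the 21 passed in the authors' deposited table.

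Amino acid transporters had 0 of 19 limma calls, and at an unadjusted p under 0.05 there were 3 higher and 2 lower, with 10.3% and 7.69% for all genes. Slc43a1, a carrier of large neutral amino acids, had 15.3 and 12.3 RPKM in the controls, against 25.5 and 24.5 RPKM in the knockouts, with an adjusted p of 0.00123 in the authors' deposited table, the 1 of the 19 past the threshold there, where 7.84% of all genes were. Slc7a8 had 60.8 and 43.7 RPKM against 103 and 80.0 RPKM, and Slc38a1 had 14.8 and 12.3 RPKM against 22.0 and 17.3 RPKM. Slc1a4, a carrier of small neutral amino acids, had 9.56 and 14.3 RPKM against 7.89 and 6.79 RPKM. The cystine carrier Slc7a11, a known ATF4 target, had 0.917 and 0.616 RPKM against 0.512 and 0.271 RPKM. Highest in level was Slc3a2, the shared heavy chain of several carriers, with 494 and 453 RPKM against 619 and 512 RPKM, and its light chain Slc7a5 had 78.0 and 87.5 RPKM against 69.8 and 57.6 RPKM. Next was Slc38a2, a carrier of small neutral amino acids, with 338 and 276 RPKM against 307 and 295 RPKM, where the groups overlapped.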

How the data were processed

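The members and gene lists were chosen with earlier results of these data known. Per the submitters' processing notes, the authors trimmed with Trim Galore, aligned with STAR and counted with featureCounts (Subread), and edgeR is named, on mm10 (GRCm38). No version, strand setting or gene filter is stated there. The 4 columns deposited by the authors hold RPKM, a unit read from the values, since value times gene length gave whole reads at 1 step in each library (100% whole within 0.01 reads). The authors' deposited standard-error columns (signal scale, RPKM) and group means were not used. The library sizes that scale the RPKM values were worked out from the step in each library. They were smaller than the reads listed, so they are not totals of reads. They were 85.9% and 92.45% of the reads listed in the controls, against 75.7% and 75.5% in the knockouts. The choice of scaling therefore differs by genotype. Columns beginning with Ct were taken as control and those with Fl as knockout, which the labels do not spell out. The authors' deposited adjusted p-value (q-value) was used as given, without knowledge of its model. limma 3.58.1 in R 4.3.3 was fitted with a mean-variance trend to log2(RPKM + 0.5), a scale that understates changes of low genes, over 11603 genes and 4 libraries, genotype being the only term. Adjustment was by Benjamini-Hochberg at 0.05. Steps were tested on simulated data. The naming rule gave per-library values to the members with the smallest p, the most extreme fold changes and the highest or lowest levels, and to Farsa, Farsb, Gars, Kars and Qars; the other members were added after their values were seen; from each other list, for genes with a limma unadjusted p or deposited adjusted p under 0.05 (at most 6), the 2 most abundant, and some chosen after their values were seen for their role. Alternatives were other pseudocounts (0.1 and 1), a minimum mean of 1 RPKM, other scalings, limma-voom, a replicate block and each library left out. Some items are not reported here.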

Additional observations from a re-analysis of the deposited data

How the results depend on the processing

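No member was called by limma under any of the 11 alternatives fitted, or in the authors' deposited table, and the lowest adjusted p of a member ran from 0.0623 (replicate block, Eprs) to 0.679 (without control 2). The count of members with a log2 fold change above 0, 17 of 36, was 5 when scaled by the reads listed and ran from 12 to 19 when 1 library was left out. Of the members, 12 changed sign under that scaling, 3 to 8 when 1 library was left out and at most 1 under the other alternatives. Members with an unadjusted p under 0.05, 2 in the fit reported, numbered 8 (22.2%) when scaled by the reads listed, where 22.9% of all genes did, and 0 to 4 without 1 library, where 7.25% to 16.6% of all genes did. For the other lists together, 109 genes, limma called 0, also in each fit without 1 library, and 2 genes were lower and 3 higher in the authors' deposited table, 5 in all. Over all genes limma called 1, limma-voom 11 and limma with the replicate block 1004. With the replicate block limma called 12 of these 109 genes and 3 members (8.33%) had an unadjusted p under 0.05, as 29.9% of all genes did. Same-numbered libraries share only a number in the labels, and their deviations correlated at 0.414 across 10007 genes. The filter on low values removed Pars2, leaving 35 members. Leaving out a library leaves 1 in its group, which is assumed to vary like the other group. With 2 libraries a group, the unadjusted 95% intervals reached up to 0.64 on either side on the log2 scale, and the adjusted test left larger differences uncalled (Asns, -0.93).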
